A study of Oryza sativa with 14 samples.

Results

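In the roots of dark-grown rice seedlings, 44 of 57258 array features had a higher level with ethylene than in air in wild type (WT) and in the mutant mhz1, and nearly the same level in both gases in the mutants mhz4 and mhz5. A feature is a set of probes for 1 transcript, and its level was taken as log2 of the deposited signal plus 8, with control features left out. A member had ethylene minus air of at least 0.8 in WT and in mhz1 roots, a value from -0.4 to 0.4 in mhz4 and in mhz5 roots, and a signal of at least 50 on the WT and mhz1 root ethylene arrays. A difference of 0.8 on this scale is a factor of 1.74 in signal plus 8. The members were thus chosen by their measured root values, so every root value below is a description with no test. The 6 shoot arrays were not used in that choice and were tested.

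RNA from whole roots and whole shoots was hybridised to 14 single-colour Affymetrix rice arrays, with 1 array for each combination of genotype, tissue and gas. Roots of mhz4, mhz5, mhz1 and WT were measured with ethylene and in air, and shoots of mhz4, mhz5 and WT likewise. All seedlings germinated for 2 days in the dark at 37 °C, and ethylene was given at 10 ppm for 8 h at 28 °C in the dark to seedlings aged 3 days. The labels give the air seedlings as the control, with no duration or temperature of their own, and they mention a lowered water level of 1.5 to 1.7 cm for the ethylene treatment only. The labels name no cultivar, no allele of the mutants and no number of seedlings per extract. The mark mb, unexplained in the labels, stands in the titles of the WT root arrays alone, so every root difference between a mutant and WT also includes whatever mb stands for. No group had a second array, so a single difference between arrays could not be checked against replicates.

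Ethylene is a gaseous hormone perceived by receptors in the endoplasmic reticulum. Binding of the gas releases the membrane protein EIN2 from its inhibition, and EIN3-type transcription factors then change the expression of many genes. In dark-grown rice seedlings ethylene inhibits root growth and promotes growth of the coleoptile, and the mhz mutants were isolated for altered versions of this response. As background, MHZ5 encodes a carotenoid isomerase and MHZ4 a homolog of Arabidopsis ABA4, both of which act on the path from carotenoids to the hormone abscisic acid (ABA), while MHZ1 encodes a histidine kinase.

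The arrays matched their tissue labels. The summed signal of 5 root markers was 7002 to 14874 on the 8 root arrays and 514 to 1171 on the shoot arrays, and that of 5 photosynthesis genes was 65.8 to 534 on root arrays and 19848 to 30591 on shoot arrays. The root markers were AMT1-1, AMT1-2, Lsi1, Lsi2 and YSL15, of which Lsi2 is itself a member. Lsi1, not a member, had 4465 to 7090 on root arrays and 148 to 272 on shoot arrays. Of the root arrays, mhz4 with ethylene held the most photosynthesis signal, at 534, against 65.8 to 133 on the other 7. Of 8 seed storage genes only GLUA-2 reached 50 on any array. The 5 dehydrin and LEA genes RAB21, RAB16B, RAB16C, RAB16D and OsLEA19, which respond to ABA and drying, set 2 root arrays apart. Their summed signal was 185 in mhz4 air and 183 in mhz5 air, against 1412 in mhz1 air and 7613 in WT air, and it was 104 to 146 on the 4 root ethylene arrays. The air arrays on which the members were low were thus the ones on which these genes were high, and the part of this state in the results was not tested. In whole roots, fewer cells of a type and less RNA per cell cannot be told apart.

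Of the 19095 features with a signal of at least 50 on both ethylene arrays, 2.36% had a root response of at least 0.8 in WT and 1.86% in mhz1, and 246 had it in both. All 44 members pass both by construction. Among these 246, the root response in mhz4 was at least 0.8 for 93, above 0.4 and under 0.8 for 73, from -0.4 to 0.4 for 70 and under -0.4 for 10. In mhz5 the same counts were 69, 64, 89 and 24. The members are the 44 that fell in the flat range in both mutants, and 45 of the 246 reached 0.8 in all 4 genotypes. Over the members, the median root response was 0.11 in mhz4, 0.03 in mhz5, 1.01 in mhz1 and 1.14 in WT. The highest was 0.38 in mhz4, 0.36 in mhz5, 2.20 in mhz1 and 2.89 in WT.

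The limits of the rule cut through a continuous range. LOC4347336, Os.17190.1.A1_s_at and OsAffx.19399.1.S1_at were just inside the WT limit, at 0.81, 0.82 and 0.83, and LOC9269133, LOC9268613 and LOC4351184 just outside it, at 0.79, 0.77 and 0.76. In mhz1, LOC4347336, LOC4330517 and Os.6645.1.S1_s_at lay just inside, each at 0.81, and Os.20118.1.A1_s_at, a second feature of LOC4351505 and LOC4346689 just outside, at 0.80, 0.78 and 0.77. The mhz4 limit admitted CatB at 0.38, LOC4351505 at 0.38 and LOC4325938 at 0.35, and turned away LOC4327434 at -0.41, LOC4325984 at 0.42 and LOC4345612 at -0.43. The mhz5 limit admitted LOC4347208 at -0.40, THT2 at -0.37 and Os.6645.1.S1_s_at at 0.36, and turned away LOC4340701 at 0.44, OsAffx.12865.1.S1_at at -0.45 and LOC4326394 at 0.49. On the signal limit, LOC4348121 at 54.2, LOC9268322 at 62.0 and Os.11147.1.S1_at at 63.0 were in, and LOC4329742 at 47.3, OsAffx.27273.1.S1_at at 36.1 and OsAffx.19837.1.S1_at at 35.0 were out.

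The members named in the annotation span oxylipin synthesis, silicon transport, hydrogen peroxide removal, phenolic amide synthesis and a homeobox factor. In the platform annotation 32 members had 1 gene each, 32 different genes in all, and the other 12 are unnamed here. Only 5 genes had an informative name (LOX3, THT2, Lsi2, CatB and WOX6), while 27 are known in the gene table by a locus number alone and get no function here. The 32 genes lay on all 12 chromosomes, and no pair of them lay within 10 genes of each other. Os.6645.1.S1_at and Os.6645.1.S1_s_at share a stem and are likely to report 1 transcript. By gene name, members were found in 5 of the keyword groups, with 1 gene in each. As a background, 165 of 12728 genes measured (1.3%) and 30 of the 1882 with an informative name (1.59%) were induced in WT and mhz1, so that groups of this size with no or 1 induced gene are near the background. The ABA group had no gene of 59 measured that was induced in WT and mhz1, and the ethylene group had 2 of 9, both of them induced in all 4 genotypes. A keyword group for iron, zinc and copper, not limited to uptake genes, had 34 genes measured. Of these, 8 were induced in WT and mhz1 (ARD1, BHLH063, COPT1, NAAT1, NAS3, ZIP1, osysl15 and osysl16), 2 in all 4 genotypes, against that 1.59% of named genes. None was a member. Only 5 of the 30 named genes induced were members, so having no member in a group with so few induced genes is near that share. Of 15 measured genes for nitrogen, phosphate, sulfate and silicon transport, 3 were induced in WT and mhz1, namely Lsi2 and the non-members AMT1-2 and AMT2-2. Auxin genes had 1 of 46 and jasmonate genes 1 of 26 induced in WT and mhz1, neither a member, and 0 of 18 aquaporins and 0 of 37 histone, cyclin and replication genes were induced.

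For most members the mutant level in air was high relative to the mhz1 and WT air arrays. The level of each mutant in air was placed on a scale on which 0 is the mean air level and 1 the mean ethylene level of mhz1 and WT. A value of at least 0.67 was called near the ethylene level, and one of at most 0.33 near the air level. In mhz4 air, 32 of the 44 members were near the ethylene level, 4 between and 8 near the air level. In mhz5 air the counts were 31, 6 and 7. For 29 members both mutants were near the ethylene level, for 22 both were at or above it, for 6 both were near the air level and for 2 both lay between. The remaining 7 differed in class between the mutants. Of all 246 features induced in WT and mhz1, to which the members belong, 93 were near the ethylene level in mhz4 air (37.8%), 132 in mhz5 air (53.7%) and 82 in both (33.3%), and 45 were at or above it in both (18.3%). The median place was 1.07 in mhz4 and 1.06 in mhz5, with a range of -0.58 to 2.13 in mhz4 and of -0.71 to 2.44 in mhz5. For most members, then, the missing root response went with mutant air levels near the ethylene level of mhz1 and WT on this scale. Both the scale and the rule rest on the mhz1 and WT air arrays. A high mutant level and a low state of those air arrays cannot be told apart here.

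**Figure D1:**
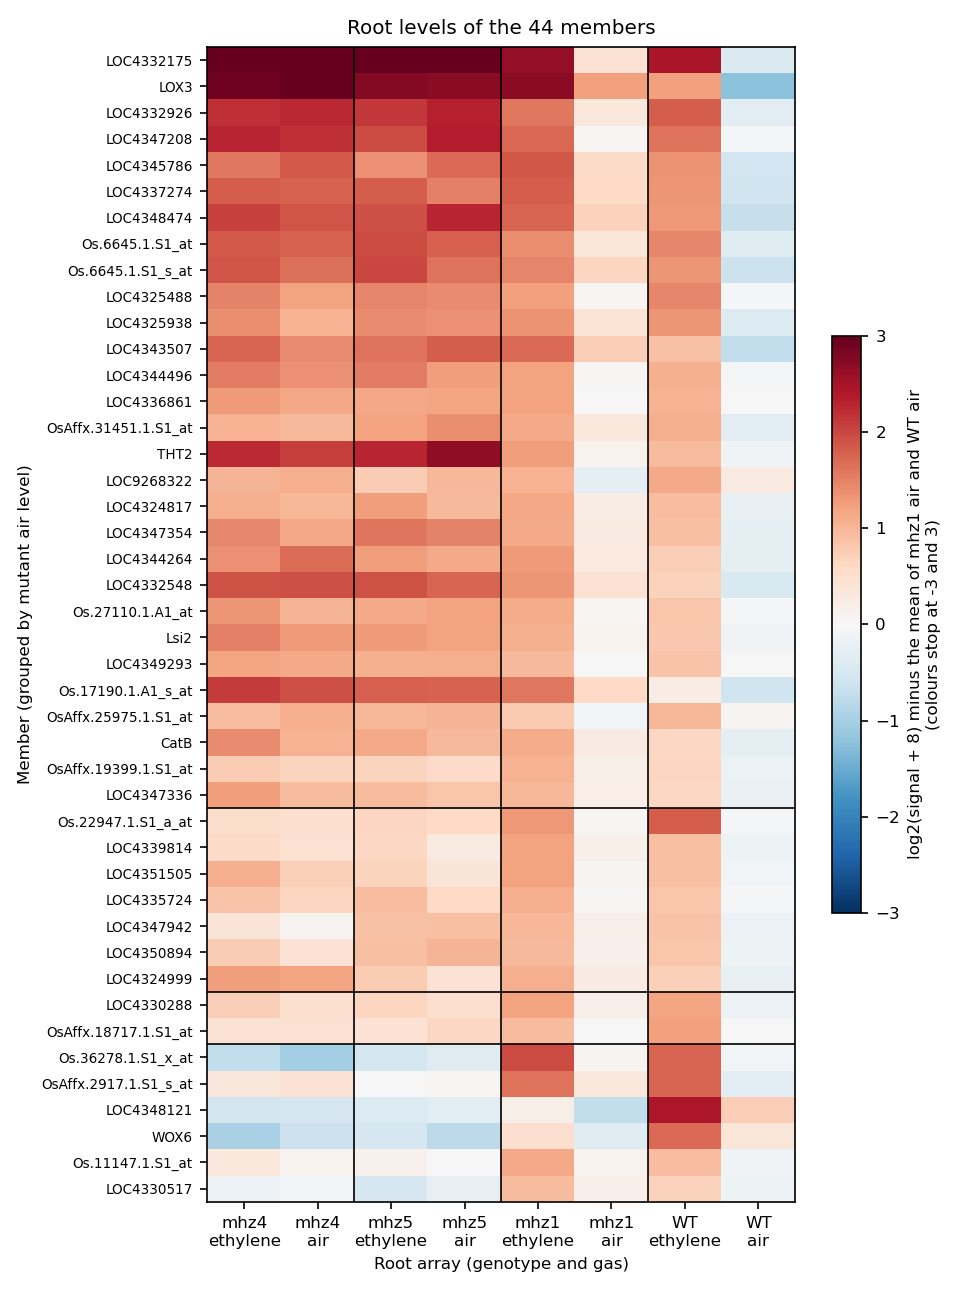
Heat map of the 44 members (rows) on the 8 root arrays (columns, ethylene left of air within each genotype), as log2(signal + 8) minus the mean of the mhz1 and WT air arrays. The upper block of 29 members is red on all mhz4 and mhz5 arrays, and the lowest block of 6 is pale or blue there.

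In air, 30 members were at least 0.8 higher in mhz4 than in WT, against 2.42% of the 19095 features, and 29 in mhz5, against 3.34%. Relative to mhz1 air, which shares no array or title mark with WT, 23 were at least 0.8 higher in mhz4, against 1.39% of features, and 26 in mhz5, against 2.35%. These shares of members are read with care, because the rule asked for a low air level relative to ethylene in WT and mhz1 and so favoured low values on their air arrays. With ethylene, 6 members were at least 0.8 lower in mhz4 than in WT, against 4.25% of features, and 7 in mhz5, against 3.69%. The median difference from WT in air was 1.24 in mhz4 and 1.22 in mhz5. With ethylene it was 0.24 in mhz4 and 0.12 in mhz5. The mhz4 air level lay above both the mhz1 and the WT air level for 38 members and above both ethylene levels for 17, and for mhz5 these counts were 38 and 20.

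The members were also set against mhz1 or WT alone, as a description that reuses the root values of the rule. On the scale of mhz1 alone, 28 of the 44 members were near the ethylene level in both mutants, and on that of WT alone 31 were. A rule that asked for the response and the signal in mhz1 only found 96 features, which hold all 44 members by construction, and the WT response was above 0 for 92 and at least 0.8 for 48 of them, against 2.38% of the 19664 features with that signal. In 55 of these 96, both mutants were near the ethylene level of mhz1. With WT only it found 126 features, with an mhz1 response above 0 for 116 and at least 0.8 for 44 (the members), against 1.83% of 19769 features, and 65 near the ethylene level of WT in both mutants. For the members, mhz1 itself was above WT in air in 40 of 44, by a median of 0.34, beside a median of 0.27 over the 246 features induced in WT and mhz1 and of -0.04 over all 19095.

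The 45 features induced in all 4 genotypes were placed differently. There, 3 were near the ethylene level in both mutants and 19 near the air level in both, with a median place of 0.18 in mhz4 and 0.32 in mhz5. Part of this contrast is set by the definitions, since a mutant that responds by 0.8 from a high air level would have to overshoot the ethylene level of WT and mhz1.

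**Figure D2:**
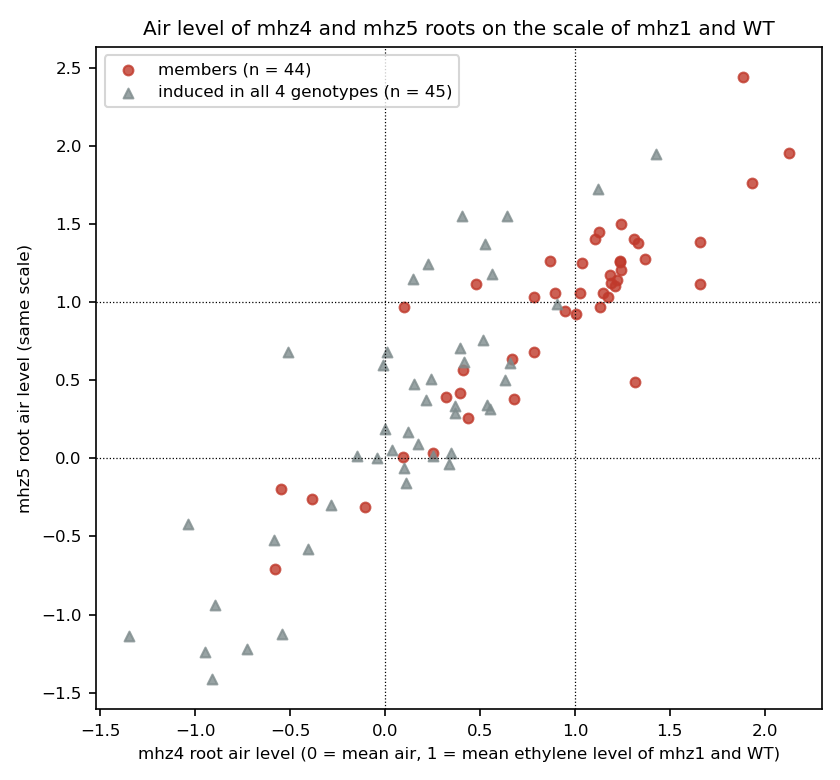
Air level of mhz4 roots (x axis) and mhz5 roots (y axis) for each feature, on a scale where 0 is the mean air level and 1 the mean ethylene level of mhz1 and WT. Most of the 44 members (circles) lie around or above 1 on both axes, with medians of 1.07 and 1.06, while the 45 features induced in all 4 genotypes (triangles) have medians of 0.18 and 0.32.

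The largest responses in WT and mhz1 belonged to LOC4332175, a gene with no informative name here. Its signals with ethylene and in air were 895 and 933 in mhz4, 965 and 976 in mhz5, 647 and 135 in mhz1, and 573 and 70.3 in WT. Both mutants exceeded the ethylene level of WT and of mhz1 in each gas, and the mhz1 and WT air arrays alone were low. The root response was -0.06 in mhz4, -0.02 in mhz5, 2.20 in mhz1 and 2.89 in WT, and the air place was 1.24 for mhz4 and 1.26 for mhz5.

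LOX3, also listed as r9-LOX1, encodes a lipoxygenase, an enzyme that adds oxygen to polyunsaturated fatty acids and so starts the synthesis of oxylipins. LOX3 signals with ethylene and in air were 579 and 734 in mhz4, 517 and 500.3 in mhz5, 497 and 174 in mhz1, and 174 and 25.4 in WT. Air and ethylene values of mhz4 and mhz5 were all at or above that of mhz1 with ethylene, and WT was the lowest genotype in either gas. The WT value with ethylene was close to the mhz1 value in air, so the 2 responding genotypes covered different ranges. The other lipoxygenases on the array, taken by family name once the members were known, did not share this pattern. LOX2.1 had a root response of 2.81 in mhz4 and -1.36 in mhz5, against 0.82 in mhz1 and 2.06 in WT. It was dim, with signals with ethylene and in air of 29.2 and 13.2 in mhz1 and 38.2 and 3.07 in WT. LOX1.1 had a response of -2.04 in mhz4 and -0.99 in mhz5, against -0.94 in mhz1 and 0.35 in WT.

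THT2 encodes a hydroxycinnamoyltransferase, an enzyme that couples phenolic acids to an amine and so makes phenolic amides. THT2 had signals with ethylene and in air of 404 and 357 in mhz4, 419.9 and 545 in mhz5, 199 and 85.2 in mhz1, and 159 and 73.8 in WT. All 4 arrays of mhz4 and mhz5 lay above all 4 of mhz1 and WT, and mhz5 had more signal in air than with ethylene. The air place was 1.89 for mhz4 and 2.44 for mhz5, beyond the ethylene level of mhz1 and WT. TDC2, a tryptophan decarboxylase gene that missed the rule because of its mhz1 response of 0.57, was likewise flat and high in these mutants. Its signals with ethylene and in air were 470.3 and 409 in mhz4, 452 and 371 in mhz5, 332 and 221 in mhz1, and 186 and 102 in WT.

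Lsi2 encodes the efflux transporter that passes silicon, and arsenite, from root cells toward the vascular tissue. Lsi2 signals with ethylene and in air were 3054 and 2600.1 in mhz4, 2602 and 2448 in mhz5, 2237 and 1144 in mhz1, and 1869.8 and 987 in WT. The mhz4 and mhz5 arrays were above the mhz1 and WT arrays of either gas, with little spread among the 4. Lsi1, the partner that takes silicon into the root, missed the rule with responses of 0.54 in mhz1 and 0.66 in WT. Its signals with ethylene and in air were 6756 and 6368 in mhz4, 7007 and 6022 in mhz5, 6499 and 4465 in mhz1, and 7089.9 and 4496 in WT. In Lsi1, too, only the mhz1 and WT air arrays were low. Lsi6, a channel for silicon in leaves and nodes, had root responses of -0.08 in mhz4 and 0.28 in mhz5, against 0.19 in mhz1 and 0.38 in WT.

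CatB encodes a catalase, which breaks down hydrogen peroxide. The member feature had signals with ethylene and in air of 829 and 634 in mhz4, 674 and 608 in mhz5, 669.6 and 365 in mhz1, and 475 and 253 in WT. Both mutants in air lay above WT with ethylene and just under mhz1 with ethylene. This pattern rests on 1 of 5 features of the gene. The other 4 had root responses of 0.24 to 0.40 in WT and 0.16 to 0.35 in mhz1, and the member feature is of a type (x_at) whose probes can match other transcripts. The same caution holds for 3 further genes with a second bright feature. LOC4339814 had 2 others with WT responses of 0.64 and 0.53 and mhz5 responses of 0.40 and 0.74. LOC9268322 had 1 with 0.27 in WT, and LOC4351505 had 1 with 1.07 in WT and 0.78 in mhz1, just short of the limit.

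WOX6 encodes a WUSCHEL-related homeobox factor, of a family that acts in meristems and in rice in crown roots and shoot gravitropism. It was the 1 informatively named member that was low in the mutants in both gases. Its signals with ethylene and in air were 18.4 and 25.0 in mhz4, 28.2 and 21.9 in mhz5, 65.3 and 31.9 in mhz1, and 158 and 58.1 in WT. All 4 mhz4 and mhz5 arrays fell below all 4 of mhz1 and WT, and below the signal of 50 asked of WT and mhz1. Its relative WOX11, which acts in crown root growth, had root responses of -0.40 in mhz4 and 0.13 in mhz5, against 0.49 in mhz1 and 0.82 in WT. WOX11 signals with ethylene and in air were 19.6 and 28.4 in mhz4, 25.1 and 22.3 in mhz5, 44.1 and 29.1 in mhz1, and 54.1 and 27.2 in WT. For WOX11 the ethylene arrays of mhz1 and WT alone were high.

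Besides WOX6, 5 members stayed near the air level in both mutants, namely Os.36278.1.S1_x_at, OsAffx.2917.1.S1_s_at, LOC4348121, Os.11147.1.S1_at and LOC4330517. Os.36278.1.S1_x_at had signals with ethylene and in air of 16.3 and 12.1 in mhz4, 20.2 and 23.7 in mhz5, 151 and 34.7 in mhz1, and 128 and 30.7 in WT. The mutants were below the mhz1 and WT air arrays in both gases. LOC4348121 had 29.7 and 31.0 in mhz4, 33.6 and 35.5 in mhz5, 54.2 and 25.2 in mhz1, and 289 and 83.5 in WT, so that WT stood apart from the 3 mutants in both gases. OsAffx.2917.1.S1_s_at had 28.7 and 31.0 in mhz4, 21.2 and 22.2 in mhz5, 81.7 and 28.4 in mhz1, and 88.7 and 15.1 in WT, Os.11147.1.S1_at had 38.7 and 32.1 in mhz4, 32.8 and 29.7 in mhz5, 74.8 and 32.4 in mhz1, and 63.0 and 26.9 in WT, and LOC4330517 had 67.1 and 72.5 in mhz4, 52.5 and 63.5 in mhz5, 158 and 86.8 in mhz1, and 129.6 and 68.9 in WT. In these 3 the mutant arrays stayed far below the ethylene arrays of mhz1 and WT, and most of them near those air arrays. On the shoot arrays LOC4348121 had signals of 6455 to 8401 and Os.11147.1.S1_at of 482 to 1619, far above their root signals. The part of shoot RNA in these dim root values was not tested.

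Between these ends, LOC4330288 and OsAffx.18717.1.S1_at were intermediate in both mutants. LOC4330288 had signals with ethylene and in air of 87.3 and 70.7 in mhz4, 80.8 and 72.3 in mhz5, 122 and 56.2 in mhz1, and 121 and 42.3 in WT. OsAffx.18717.1.S1_at had 53.2 and 52.8 in mhz4, 52.4 and 60.2 in mhz5, 77.6 and 37.1 in mhz1, and 96.9 and 36.0 in WT. In both features every mhz4 and mhz5 value lay above the air and below the ethylene values of mhz1 and WT. The 7 members of mixed class were Os.22947.1.S1_a_at, LOC4339814, LOC4351505, LOC4335724, LOC4347942, LOC4350894 and LOC4324999. The widest splits were those of LOC4347942, with an air place of 0.10 for mhz4 and 0.97 for mhz5, and of LOC4324999, split the other way with 1.32 for mhz4 and 0.49 for mhz5. The signals of LOC4347942 with ethylene and in air were 65.1 and 51.2 in mhz4, 94.4 and 95.5 in mhz5, 103 and 54.6 in mhz1, and 92.5 and 41.3 in WT. Its mhz4 arrays lay nearer the air arrays and its mhz5 arrays nearer the ethylene arrays of mhz1 and WT.

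Some of the 29 members near the ethylene level in both mutants were under 50 on all shoot arrays, and of these LOC4332926 and LOC4347208 had the widest responses in WT and mhz1. LOC4347208 had signals with ethylene and in air of 159 and 148 in mhz4, 124 and 166 in mhz5, 104 and 27.7 in mhz1, and 96.9 and 24.6 in WT. LOC4332926 had 443 and 469 in mhz4, 423 and 494 in mhz5, 290.2 and 116 in mhz1, and 340.0 and 71.2 in WT. In both genes the mhz1 and WT air arrays were the only low ones. Both features of Os.6645 were alike. Os.6645.1.S1_at had 6203 and 5966 in mhz4, 6824 and 6043 in mhz5, 4589 and 2246 in mhz1, and 4815 and 1345 in WT, and Os.6645.1.S1_s_at had 6543 and 5554 in mhz4, 7070.3 and 5504 in mhz5, 4884 and 2776 in mhz1, and 4429 and 1127 in WT. In each, mhz4 and mhz5 exceeded mhz1 and WT in either gas, with WT air lowest.

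**Figure D3:**
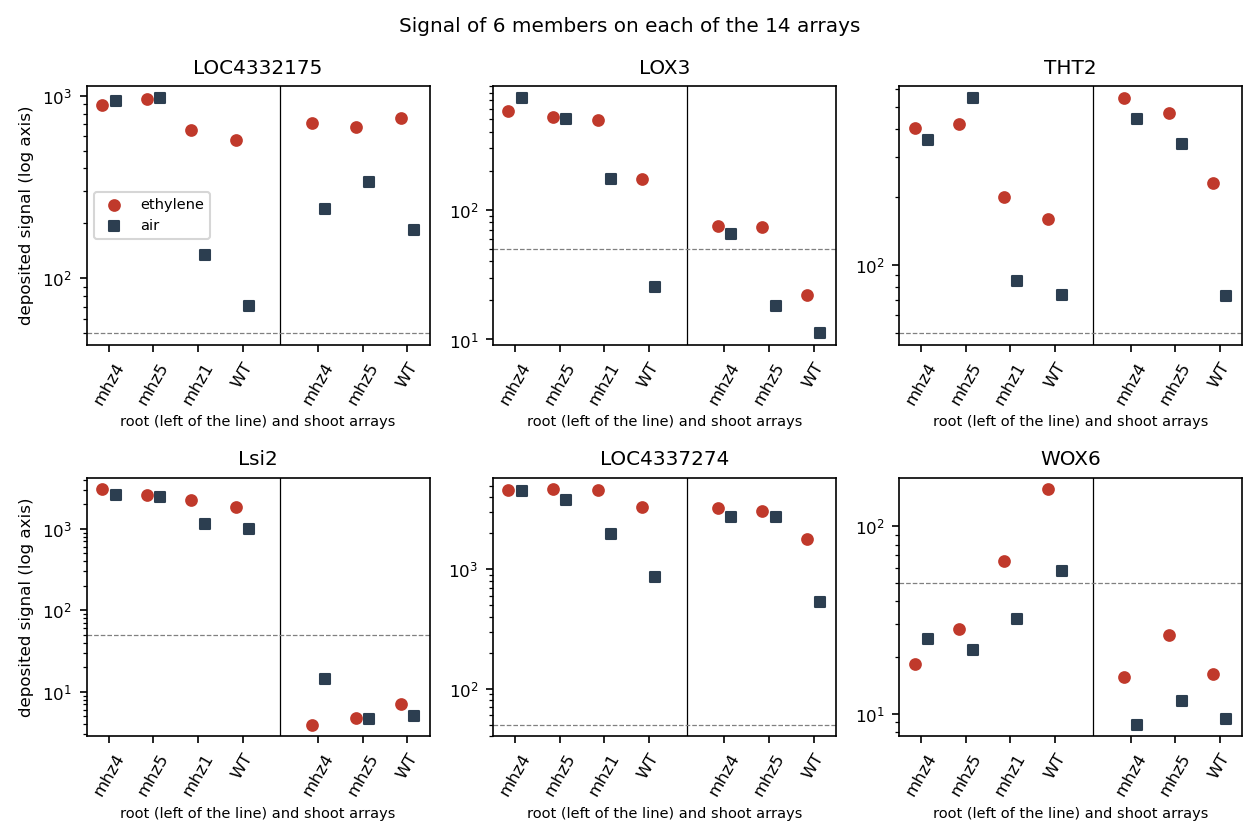
Deposited signal (log axis) of 6 members on the 14 arrays, roots left of the vertical line and shoots right of it, with ethylene as circles and air as squares; the dashed line is a signal of 50. In roots LOC4332175, LOX3, THT2, Lsi2 and LOC4337274 are high in both gases in mhz4 and mhz5, and WOX6 is low there.

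Shoots gave arrays that the rule did not use, though from another tissue. Of the 44 members, 13 had a signal under 50 on all 6 shoot arrays, among them Lsi2 (3.95 to 14.2) and WOX6 (8.76 to 26.4), and 31 reached 50 on at least 2 and were tested among 20760 features. For LOX3, LOC4336861, Os.22947.1.S1_a_at, OsAffx.18717.1.S1_at and Os.27110.1.A1_at no WT shoot array reached 50, so these 5 entered the test only through mutant arrays on which they were high. The limma fit had terms for genotype and gas, so the 2 gases stood in as replicates of a genotype and the 3 genotypes as replicates of the ethylene effect, and its p-values measure only the spread left between these arrays, not that between seedlings.

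Many of the members tested were higher in mutant shoots, those that entered through mutant arrays alone included. In mhz4 shoots 21 of 31 rose and 3 fell relative to WT (limma, adjusted p under 0.05), against 10.4% and 6.37% of all features. In mhz5 shoots 14 rose and 1 fell, against 6.58% and 2.93%. The median difference from WT over the 31 was 1.28 in mhz4 and 0.92 in mhz5, beside 0.05 and 0.09 over all features tested. Without any filter, 23 of 44 rose in mhz4, against 3.84%, and 15 in mhz5, against 2.48%. Both comparisons use the same 2 WT arrays, so their calls are not independent. When a WT shoot array had to reach 50, 15 of 26 rose in mhz4, against 8.1% of features, and 9 in mhz5, against 4.23%. Without the mhz4 arrays 7 of 31 rose in mhz5, against 2.57%. Over all features the fit called 2151 higher and 1322 lower in mhz4, and 1367 higher and 608 lower in mhz5. After quantile normalization these were 1734 and 1689 in mhz4, and 930 and 880 in mhz5.

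In air alone, 23 of the 31 were at least 0.8 higher in mhz4 shoots than in WT shoots, against 8.52% of features, and 22 in mhz5 shoots, against 7.9%. Of the dehydrin and LEA genes some were again higher in WT, the 5 summing to 102 to 125 on shoot arrays of mhz4 and mhz5, against 430.5 in WT with ethylene and 912 in WT air. RAB21 and OsLEA19 made up most of the WT sums, while RAB16D, at 17.2 to 26.7 in the mutants against 26.8 and 25.6 in WT, was low on every shoot array. The part of these genes in the shoot result was not tested. Without the WT shoot air array, 21 rose in mhz4, against 7.27% of features, and 13 in mhz5, against 4.87%, and none of the 31 fell in mhz4. In that fit, 3 were lower in mhz4 at an unadjusted p under 0.05 by limma.

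Of the 21 members tested that were near the ethylene level in both mutant roots, 16 rose in mhz4 shoots and 10 in mhz5 shoots. Over all features the shares were 10.4% and 6.58%. Of the 5 of mixed root class, 2 rose in mhz4 and 3 in mhz5, and the 1 between in both mutant roots rose in each. The members that entered the test through mutant arrays alone are counted in these classes, and the member between in both mutant roots is such a member. All of them rose in mhz4 shoots, and all but LOX3 rose in mhz5 shoots. The counts by class were not repeated with a WT shoot array required to reach 50. Whether these classes differ was not tested. Of the 4 near the air level in both, 2 rose in mhz4 (LOC4330517 and Os.11147.1.S1_at) and none in mhz5, where Os.11147.1.S1_at was higher at an unadjusted limma p of 0.00619. Across the 31, the mean difference from WT in air in roots and in shoots had a Pearson correlation of 0.40. The rule used the root values, and all features share 1 WT air array in each tissue. No correlation over all features is given beside it, so it is a description only.

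LOC4345786 had shoot signals with ethylene and in air of 818 and 747 in mhz4, 513 and 461 in mhz5, and 229 and 62.3 in WT, so that every mutant value lay above both WT values. The difference from WT was 2.61 ± 0.41 (SE, adjusted p = 0.0167) in mhz4 and 1.94 ± 0.41 (SE, adjusted p = 0.0463) in mhz5, by limma. Of the members under 50 in WT shoots in both gases, Os.22947.1.S1_a_at had shoot signals of 538 and 227 in mhz4, 145 and 97.9 in mhz5, and 46.9 and 16.3 in WT and differences of 3.29 ± 0.19 (SE, adjusted p = 0.00335) in mhz4 and 1.80 ± 0.19 (SE, adjusted p = 0.0136) in mhz5. LOC4336861 had 144 and 83.4 in mhz4, 61.2 and 33.0 in mhz5, and 28.5 and 11.5 in WT and differences of 2.14 ± 0.13 (SE, adjusted p = 0.00336) in mhz4 and 0.998 ± 0.13 (SE, adjusted p = 0.0186) in mhz5.

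THT2 was also higher in mutant shoots, as in roots. Its shoot signals with ethylene and in air were 548 and 439 in mhz4, 471 and 341 in mhz5, and 229.8 and 72.9 in WT, with all mutant values above both WT values. It rose by 1.85 ± 0.30 (SE, adjusted p = 0.0188) in mhz4 and 1.56 ± 0.30 (SE, adjusted p = 0.04) in mhz5, by limma. LOX3 had shoot signals of 75.3 and 65.1 in mhz4, 73.8 and 18.2 in mhz5, and 21.9 and 11.2 in WT, with WT under 50 in both gases. It rose by 1.70 ± 0.34 (SE, adjusted p = 0.0296) in mhz4, while in mhz5, where the air value overlapped WT, the difference was 0.95 ± 0.34 (SE, adjusted p = 0.128). CatB had shoot signals of 630.3 and 292 in mhz4, 471 and 324 in mhz5, and 414 and 448 in WT, and its differences from WT were -0.00 ± 0.27 (SE, adjusted p = 0.994) in mhz4 and -0.14 ± 0.27 (SE, adjusted p = 0.749) in mhz5, so the high mutant level of this feature in root air was not seen in shoots.

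Besides Os.22947.1.S1_a_at, LOC4345786, LOC4336861 and THT2, 9 members rose in both mutants' shoots. These were LOC4344496, LOC4343507, LOC4339814, LOC4332548, LOC4324817, Os.17190.1.A1_s_at, OsAffx.31451.1.S1_at, OsAffx.18717.1.S1_at and Os.27110.1.A1_at, by 0.80 to 1.91 in mhz4 and 0.70 to 1.74 in mhz5. Of these, OsAffx.18717.1.S1_at and Os.27110.1.A1_at were under 50 on both WT shoot arrays and entered the test through mutant arrays alone. How many of all features rose in both mutants was not counted. Besides LOX3, LOC4337274, LOC4347354, LOC4348474, LOC4330517, Os.11147.1.S1_at, Os.6645.1.S1_at and Os.6645.1.S1_s_at passed in mhz4 alone, and LOC4347942 passed in mhz5 alone, at 0.64 ± 0.11 (SE, adjusted p = 0.0301). Whether the 2 mutants differ for these was not tested. Those that fell in mhz4 were LOC4344264 (-0.57 ± 0.13), LOC4324999 (-0.47 ± 0.10) and LOC4348121 (-0.34 ± 0.07), and LOC4324999 also fell in mhz5 (-0.78 ± 0.10). Without the mhz5 shoot arrays none of the 3 passed in mhz4.

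**Figure D4:**
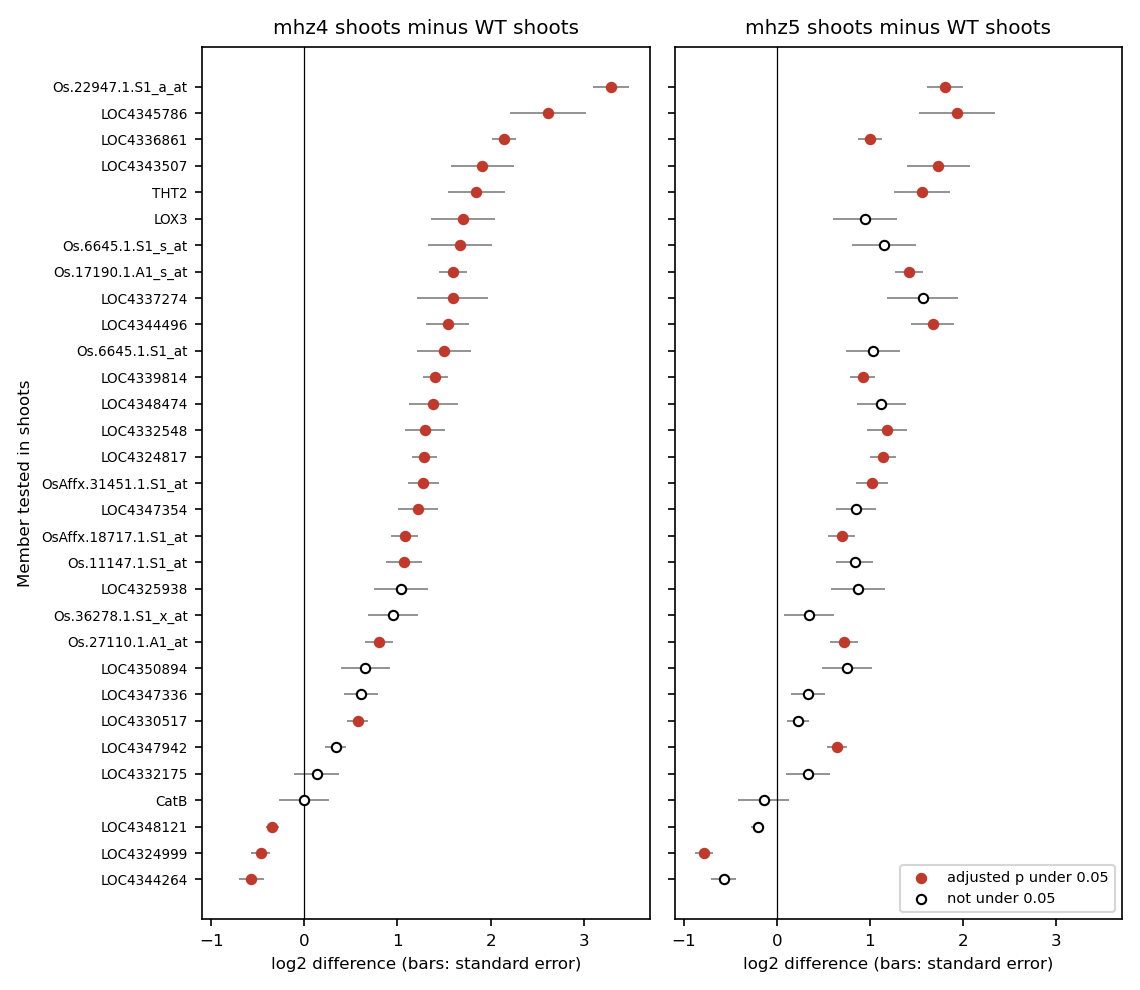
Difference in shoot level from WT for the 31 members tested, in mhz4 (left panel) and mhz5 (right panel), on the log2 scale with standard errors from limma. In mhz4, 21 members rose and 3 fell (filled symbols), and in mhz5 14 rose and 1 fell.

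The shoot arrays also allowed the difference in response to be tested on values the rule did not use. The shoot response of at least 0.8 was seen in 4 of 31 members in mhz4, against 1.14% of features, in 5 in mhz5, against 1.22%, and in 18 in WT, against 1.61%. The median response of the 31 was 0.29 in mhz4, 0.42 in mhz5 and 1.003 in WT. Over all 44 members, the dim ones included, the medians were 0.26, 0.32 and 0.47. The WT response exceeded the mutants' joint response in 26 of 31 members, beside 47.2% of all features, by a median of 0.50.

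The difference passed in 4 of 31 members, against 0.106% of features, and in each the WT response was the larger. No member passed in the other direction by limma, where 2 had an unadjusted p under 0.05, as did 17 in the direction of a larger WT response. Over all features, 2861 of 20760 had such a p in either direction. LOC4337274 had shoot signals with ethylene and in air of 3262 and 2725 in mhz4, 3109 and 2750.1 in mhz5, and 1806 and 534 in WT. Only WT air was low, and the WT response exceeded that of the mutants by 1.52 ± 0.14 (SE, adjusted p = 0.024). LOC4345786, with the signals given above, had responses of 0.13 in mhz4, 0.15 in mhz5 and 1.75 in WT and a difference of 1.61 ± 0.16 (SE, adjusted p = 0.0298). LOC4343507 had shoot signals of 717 and 559.9 in mhz4, 649 and 484 in mhz5, and 299.8 and 86.7 in WT and a difference of 1.32 ± 0.16 (SE, adjusted p = 0.0446). LOC4325938 had 3263 and 3179 in mhz4, 2971 and 2753 in mhz5, and 2381 and 1024 in WT and a difference of 1.14 ± 0.14 (SE, adjusted p = 0.0446). In these 4 genes the shoots of both mutants in air were above WT shoots with ethylene. In roots, LOC4337274 had signals with ethylene and in air of 4656 and 4534 in mhz4, 4686 and 3792 in mhz5, 4622 and 1989 in mhz1, and 3326 and 867 in WT. LOC4325938 had 3557 and 2799 in mhz4, 3593 and 3515 in mhz5, 3445 and 1774 in mhz1, and 3386 and 1017 in WT in roots.

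This test has 1 residual degree of freedom, with mhz4 and mhz5 standing in as replicates of each other, and it rests on the WT pair of arrays, of which WT air carried the most dehydrin signal of the shoot arrays. After quantile normalization 1 of 30 members passed, against 0.0339% of features.

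**Figure D5:**
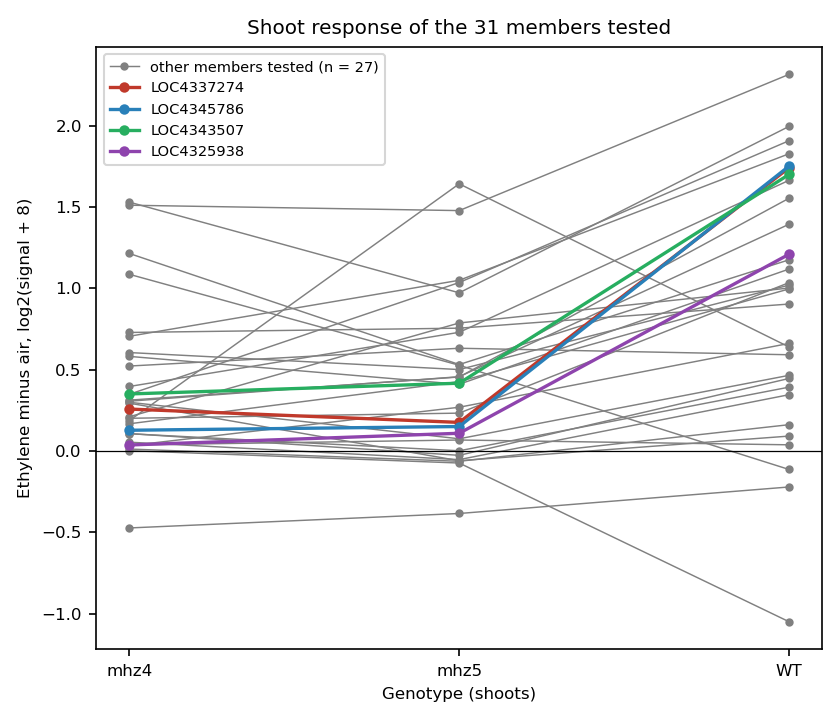
Shoot response (ethylene minus air of log2(signal + 8)) of the 31 members tested, with 1 line per member across mhz4, mhz5 and WT. The 4 coloured genes, for which the WT response exceeded that of the mutants by limma, are at 0.04 to 0.42 in the mutants and 1.21 to 1.75 in WT.

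Shoots of all 3 genotypes shared a response to ethylene in a few members. With the genotypes pooled, 4 of 31 rose with ethylene, against 0.318% of features, and the median effect was 0.67, beside -0.02 over all features tested. None fell, by limma, with 1 at an unadjusted p under 0.05. LOC4344496 rose by 1.77 ± 0.19 (SE, adjusted p = 0.0309), with shoot signals with ethylene and in air of 189 and 61.1 in mhz4, 206 and 68.9 in mhz5, and 81.7 and 10.0 in WT. LOC4332175 rose by 1.50 ± 0.19 (SE, adjusted p = 0.0461), with 709 and 240.1 in mhz4, 671 and 338 in mhz5, and 761 and 185 in WT. This gene was flat in mhz4 and mhz5 roots but responded in their shoots, where mutant air levels were not at the WT ethylene level. LOC4336861 rose by 0.80 ± 0.11 (SE, adjusted p = 0.0481) and LOC4324999 by 0.58 ± 0.08 (SE, adjusted p = 0.0497). Without the mhz4 arrays or without the mhz5 arrays no feature of the array passed by limma, although 19 and 17 of the members were higher at an unadjusted p under 0.05. Of all 20760 features, 1676 and 2039 had such a p in these fits, in either direction. Without the WT arrays, and likewise without the WT air array alone, 10 members passed, against 1.84% and 1.83% of features. Over the alternatives tried, the adjusted p by limma ran from 0.00338 to 0.119 for LOC4344496 and from 0.0112 to 0.208 for LOC4332175.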

How the data were processed

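RNA of 14 root and shoot samples of rice was measured on 1 array each, and samples were grouped by the genotype, tissue and gas in their titles. The authors deposited 1 linear intensity per feature and array, made with MAS5 per the submitters' processing notes. The MAS5 version and scaling target and the genome build are not stated there. Deposited medians were 16.3 to 17.0 over the arrays, and 19196 to 20048 features per array reached an intensity of 50. The number of arrays limits the precision.

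Of 57381 rows, 123 controls were left out. No further normalization was applied, and log2(intensity + 8) was used, which understates changes of dim features. Features were named through the platform annotation (22436 with 1 gene, 95 with several, 34727 unnamed here) and the current gene table. Shoot tests used limma 3.58.1 in R 4.3.3 (lmFit, eBayes with a trend) on the 6 shoot arrays, for features that reached 50 on 2 or more of them, and Benjamini-Hochberg adjustment over 20760 features at 0.05. The additive fit had 2 residual and 3.50 prior degrees of freedom, and the fit with a response each for WT and for both mutants together had 1 and 5.38. The scripts were tested on simulated data. Members with an informative name, members passing a shoot test and the 3 features nearest each limit of the rule on either side are named. Members and gene lists were chosen with earlier results of these data known. Alternatives covered the pseudocount, normalization, filters, rule limits, left-out arrays and a fit on all arrays. Filtering on the WT shoot arrays and the rules with 1 genotype were added after seeing the data. Promoter and protein sequences were not used here.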

Additional observations from a re-analysis of the deposited data

Results flagged for a closer look

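Among the members, 4 genes stood out because their shoot response differed between genotypes in the limma test of that difference. The WT response exceeded the joint response of mhz4 and mhz5 by 1.32 for LOC4343507, 1.52 for LOC4337274, 1.14 for LOC4325938 and 1.61 for LOC4345786 on the log2 scale. Their adjusted p-values were 0.0446, 0.024, 0.0446 and 0.0298, and over the alternatives they ran up to 0.0852, 0.0438, 0.0654 and 0.0603, so LOC4337274 alone stayed under 0.05 in each.

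Os.36278.1.S1_x_at stood out because its WT response had opposite signs in the 2 tissues, at -1.05 in shoots and 1.81 in roots. Its shoot signals with ethylene and in air were 235 and 234 in mhz4, 148 and 156 in mhz5, and 79.1 and 172 in WT. The difference between tissues was not tested, and with 1 array per group it has no replicate check.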

How the results depend on the processing

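The number of members moved with the rule itself: 18 with a response of at least 1.0, 25 with mutant responses within 0.3, 96 with mhz1 only and 126 with WT only. Over the other settings of the rule it was 31 to 46. Members near the ethylene level in both mutants were 28 to 31 over 7 settings. The calls for ethylene in shoots were the least stable, with 2 members higher at a pseudocount of 4, 1 in the fit on all arrays and 0 to 10 with arrays left out, and no called member passed in every refit. For mhz4 against WT, 18 to 21 rose with arrays left out; the 3 that fell became 0 without a filter, in the fit on all arrays and with arrays left out. For mhz5, 7 to 13 rose with arrays left out and 9 with the filter on WT arrays, and 2 fell after quantile normalization. The larger WT response passed for 1 member after quantile normalization. The median WT shoot response was 0.47 over all members and 1.003 over those tested. No called member changed direction, and 1 of 4, 15 of 24 and 6 of 15 passed in every refit for the difference in response, mhz4 and mhz5. Causes were not tested. No analysis paired by replicate number was possible, because every sample carries replicate number 1. The additive shoot fit compares the gases within genotypes.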
